A study of Homo sapiens with 4 samples.

Results

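The genes described here are 36 integrins, laminins, basement membrane collagens and focal adhesion genes in a human pancreatic cancer cell line treated with erianin. They were taken from a written list of symbols and matched to the gene IDs of the count table, where all 36 of 36 were found among 25798 gene IDs. The list holds 7 integrin alpha subunits, 5 integrin beta subunits, 8 laminin and collagen chains, 8 adaptors and kinases of focal adhesions, 4 hemidesmosome genes and 4 other matrix receptors. It was written knowing that ITGAV was lower in both erianin libraries, so that direction is a description.

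SW1990 is an established pancreatic adenocarcinoma line, labelled as wild type in genotype. The tested cells received 100 nM erianin, a bibenzyl compound from Dendrobium orchids, for 48 h, and the control cells received the DMSO solvent for the same time. RNA was sequenced from 2 libraries of erianin cells and 2 libraries of DMSO cells, and the title of the study names AKT and ASK1 as targets of the compound. The labels do not say whether the libraries of a group came from separate cultures, so the spread behind each p-value is that between these libraries and may be technical.

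Integrins are receptors made of 1 alpha and 1 beta subunit that span the plasma membrane and bind proteins of the extracellular matrix. Laminins, which are built of an alpha, a beta and a gamma chain, and type IV collagen form the basement membrane under epithelia. Inside the cell the beta tails recruit adaptors and kinases into focal adhesions, which hold actin, while the ITGA6 and ITGB4 pair joins hemidesmosomes, which hold keratin filaments. In pancreatic ductal cancer cells these receptors are known for anchoring the cells to laminin and collagen and for signalling through the focal adhesion kinase PTK2.

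The 4 libraries held 59923935 to 63336545 estimated counts, and the listed genes took 0.812 and 0.755% of them in the erianin libraries and 0.795 and 0.788% in the DMSO libraries. Erianin replicate 2 stood apart from the other erianin library: 13 of the 14 listed genes whose erianin libraries both lay below the DMSO libraries were further below in replicate 2, with LAMA3 as the exception (the library ratios are plotted by role). The share over all genes was not computed, so this pattern is not read as particular to the listed genes. Markers of pancreatic ductal cancer cells were present in all libraries (8 of 8), with summed levels of 13100 and 15000 CPM, which are counts scaled to library size, in the erianin libraries and 12200 and 12500 CPM in the DMSO libraries. Fibroblast markers (9 of 9 in the table) summed to 12.1 and 14.8 CPM in erianin libraries and 39.9 and 14.1 CPM in DMSO libraries. DCN had 0 counts in both erianin libraries and 398 and 8 counts in the DMSO libraries. Endothelial markers (3 of 4 in the table) summed to 0.628 and 1.30 CPM in erianin libraries and 1.12 and 0.801 CPM in DMSO libraries. TEK had 0 counts in both erianin libraries and 4 and 0 counts in the DMSO libraries. Blood markers (5 of 7 in the table) summed to 205 and 245 CPM in erianin libraries and 194 and 199 CPM in DMSO libraries. Nearly all of this sum came from CD68. PTPRC and HBB had 0 counts in both erianin libraries, and 9 and 6 counts in DMSO replicate 1 and 0 in DMSO replicate 2. The part of these markers in the results was not tested. In bulk RNA, fewer cells of a type and less RNA per cell cannot be told apart.

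In these SW1990 cells ITGA3 stood far above every other listed integrin subunit. Levels between genes are compared as length- and depth-scaled FPKM values, averaged over the 4 libraries. Only 4 of the 36 genes were above 100 FPKM: ITGA3 at 414 FPKM, the tetraspanin CD151 at 358 FPKM, and the adaptors PXN at 124 FPKM and BCAR1 at 108 FPKM. Another 14 lay between 10 and 100 FPKM, 10 between 1 and 10 FPKM and 8 below 1 FPKM. The low class held LAMA3, COL17A1, COL4A1, COL4A2, FERMT1, ITGA1, ITGB8 and ITGB6. ITGB6, an epithelial partner of ITGAV, had 0 counts in both erianin libraries and 8 and 0 counts in the DMSO libraries. A count of 0 allows up to 3 counts, which is 0.0471 and 0.054 CPM in the erianin libraries. ITGB6 did not pass the filter on low counts and was not tested, which leaves 35 genes.

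**Figure D1:**
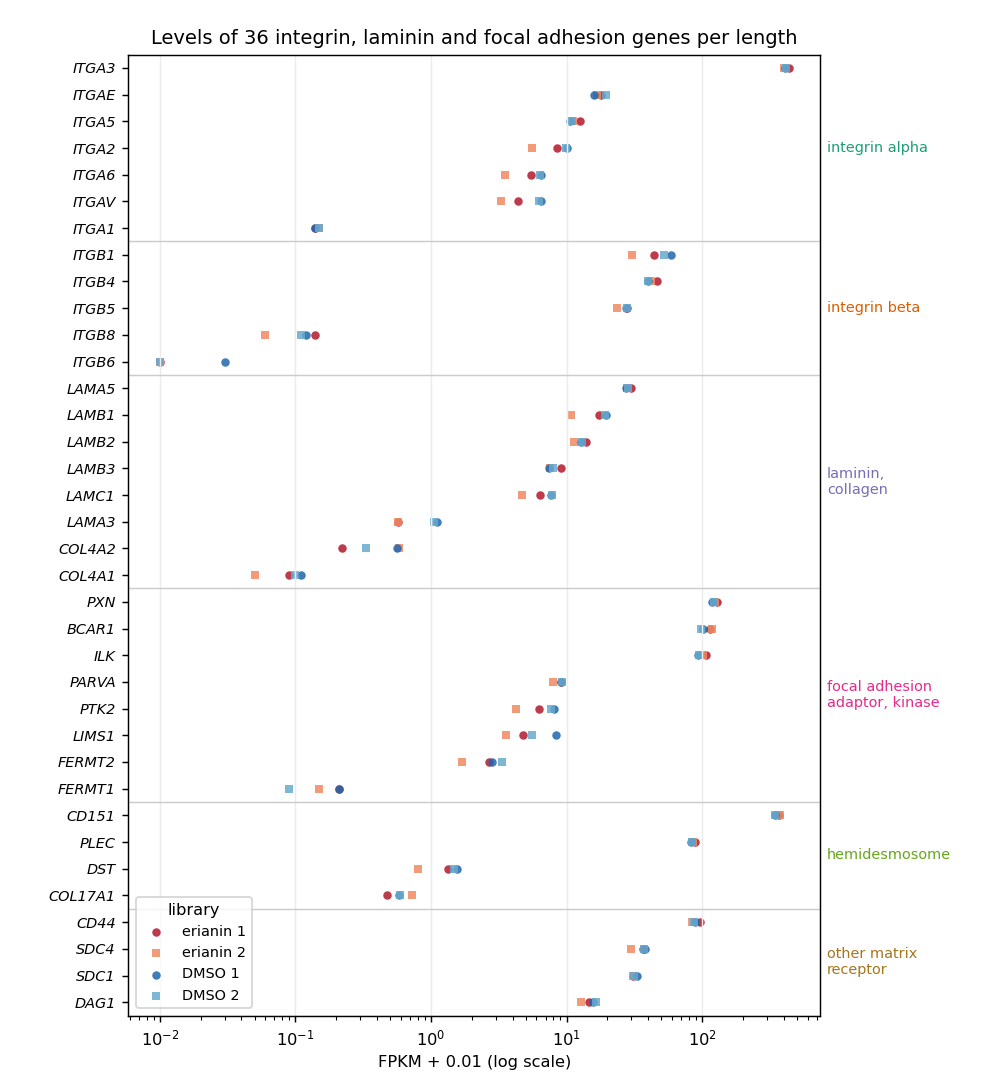
FPKM of each of the 36 listed genes on a log axis, by role, with 1 point per library (erianin and DMSO, 2 each). ITGA3 and CD151 lie highest, 8 genes lie below 1 FPKM on average, and the groups lie close together for most genes.

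None of the 35 tested genes passed the threshold after erianin (edgeR's quasi-likelihood test, Benjamini-Hochberg adjusted p below 0.05 over 17090 genes), where 0.041% of all genes did (0.0117% higher, 0.0293% lower). The smallest adjusted p of a listed gene was 0.575. At an unadjusted p below 0.05, 2 were higher in erianin cells (ITGB4 and ILK) against 2.21% of all genes, and 8 were lower (ITGAV, ITGA2, ITGA6, ITGB1, LAMA3, LAMC1, PTK2 and LIMS1) against 5.89% of all genes. The CPM values of the groups did not overlap for 24 genes: 10 were higher in erianin cells, where 21.7% of all genes were, and 14 were lower, where 24.4% of all genes were. Log2 fold changes ran from -0.64 to 0.25 with a median of 0.01, beside a median of -0.01 over all genes tested, and 18 lay above 0 and 17 below.

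DESeq2's Wald test placed 1 listed gene past its adjusted threshold, ITGAV with an adjusted p of 0.0177, where 21 of all genes (0.123%) passed. ITGAV was known to be lower when the list was written, so this call is a description and not a finding about the list. With the GC and length trend removed, its adjusted p was 0.738 by edgeR's quasi-likelihood test. Over all the alternatives run, the adjusted p of ITGAV lay between 0.00331 and 0.999. Without erianin replicate 1, 15 listed genes passed edgeR's threshold (5 higher, 10 lower), where 3166 of all genes (17.5%) passed. None passed when any other library was left out. The erianin group is then represented by replicate 2 alone, whose spread is taken to equal that of the DMSO libraries.

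**Figure D2:**
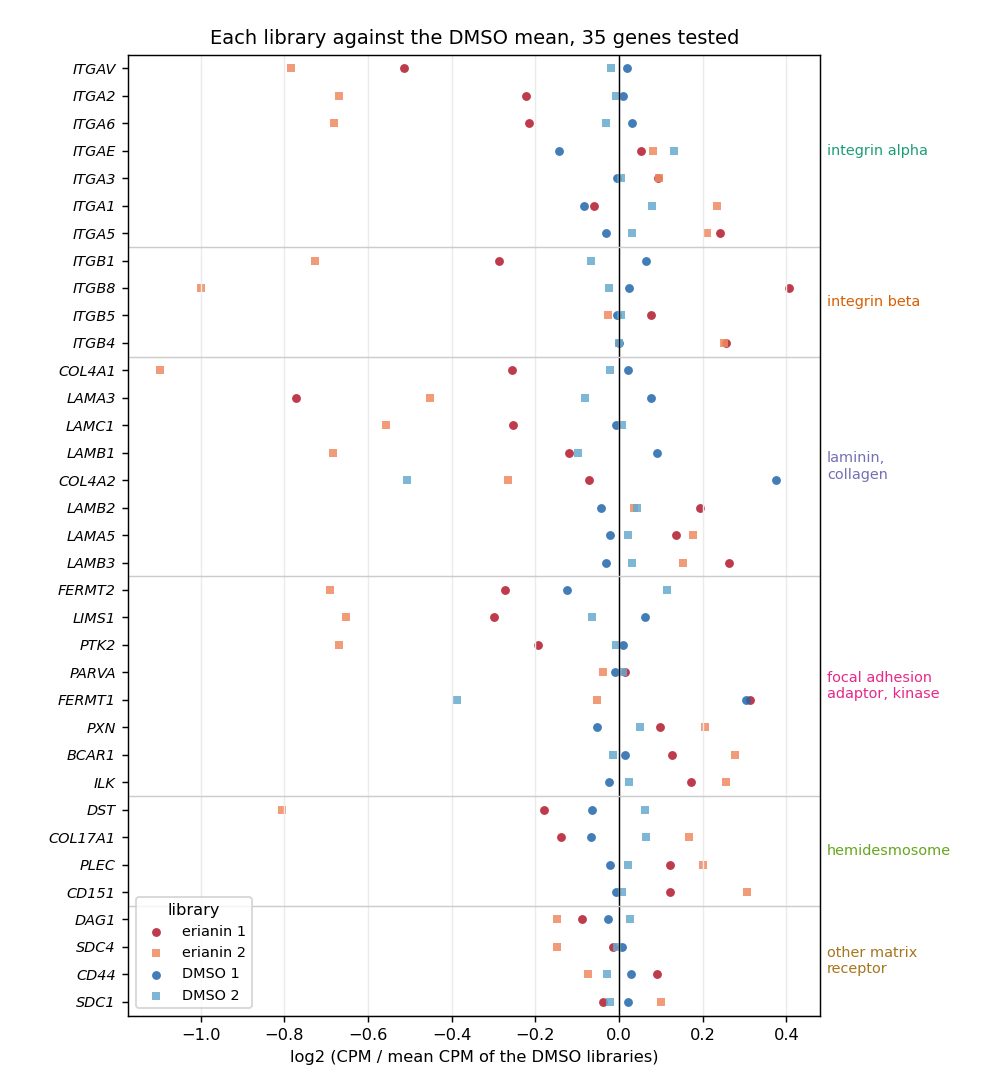
Log2 ratio of each erianin library and each DMSO library to the mean of the DMSO libraries for the 35 tested genes, by role. Erianin replicate 2 lies further below 0 than erianin replicate 1 for the genes that are lower, other than LAMA3.

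The listed genes differ widely in base composition, and the 4 coding stretches given here show the range. They are 120 bases each and come from the GRCh38 genome with GENCODE release 29 exons, given 5' to 3' on the strand of each gene, with G and C in capitals. Each was chosen because its GC content is near that of its whole transcript. The stretch of ITGAV lies in exon 7 at chr2:186636083-186636202 on the plus strand and holds 38.3% G and C. That of ITGB1 lies in exon 3 at chr10:32929877-32929996 on the minus strand. ITGB4, at chr17:75727680-75727799 on the plus strand in exon 5, holds 63.3%, and LAMA5, at chr20:62351914-62352033 on the minus strand in exon 5, holds 66.7%. ITGAV and ITGB1 were lower in erianin cells, and ITGB4 and LAMA5 were higher. These 4 genes were picked with their fold changes and GC content known, so they do not test whether direction goes with GC content.
ITGAV: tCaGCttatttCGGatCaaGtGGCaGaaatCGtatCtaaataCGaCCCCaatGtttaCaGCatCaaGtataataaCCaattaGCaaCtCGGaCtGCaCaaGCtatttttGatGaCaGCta
ITGB1: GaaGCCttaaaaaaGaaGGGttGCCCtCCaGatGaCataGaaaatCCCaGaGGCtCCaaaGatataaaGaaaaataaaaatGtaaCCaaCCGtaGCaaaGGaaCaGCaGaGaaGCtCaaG
ITGB4: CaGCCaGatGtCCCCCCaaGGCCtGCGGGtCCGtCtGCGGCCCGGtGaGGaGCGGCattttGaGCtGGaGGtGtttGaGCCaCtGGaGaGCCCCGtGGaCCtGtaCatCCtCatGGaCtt
LAMA5: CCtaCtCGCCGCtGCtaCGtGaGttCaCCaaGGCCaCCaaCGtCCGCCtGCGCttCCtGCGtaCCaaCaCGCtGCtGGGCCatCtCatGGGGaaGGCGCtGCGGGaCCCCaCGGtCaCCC

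Across the 35 tested genes, the log2 fold change and GC content of the longest transcript had a Pearson r of 0.657 and a Spearman rho of 0.687, as a description: the points share the same 4 libraries. Over 8014 genes whose log2 CPM averaged 3 or more, r was 0.456 and rho was 0.663. Taken by library, the listed genes had r of 0.445 in erianin replicate 1 and 0.694 in erianin replicate 2 against the DMSO mean, and r was 0.0532 between the DMSO libraries. Of the 15 listed genes under the all-gene median of 49.5% GC, 10 had both erianin libraries below both DMSO libraries and 0 had them above, with a median log2 fold change of -0.41. All genes under that GC content had a median of -0.21, with 39.1% lower and 8.7% higher. Of the 20 listed genes at or above 49.5% GC, 10 were higher and 4 lower (LAMA3, LAMB1, COL4A1 and DAG1), with a median of 0.10, where all such genes had a median of 0.12, with 34.9% higher and 10.1% lower.

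**Figure D3:**
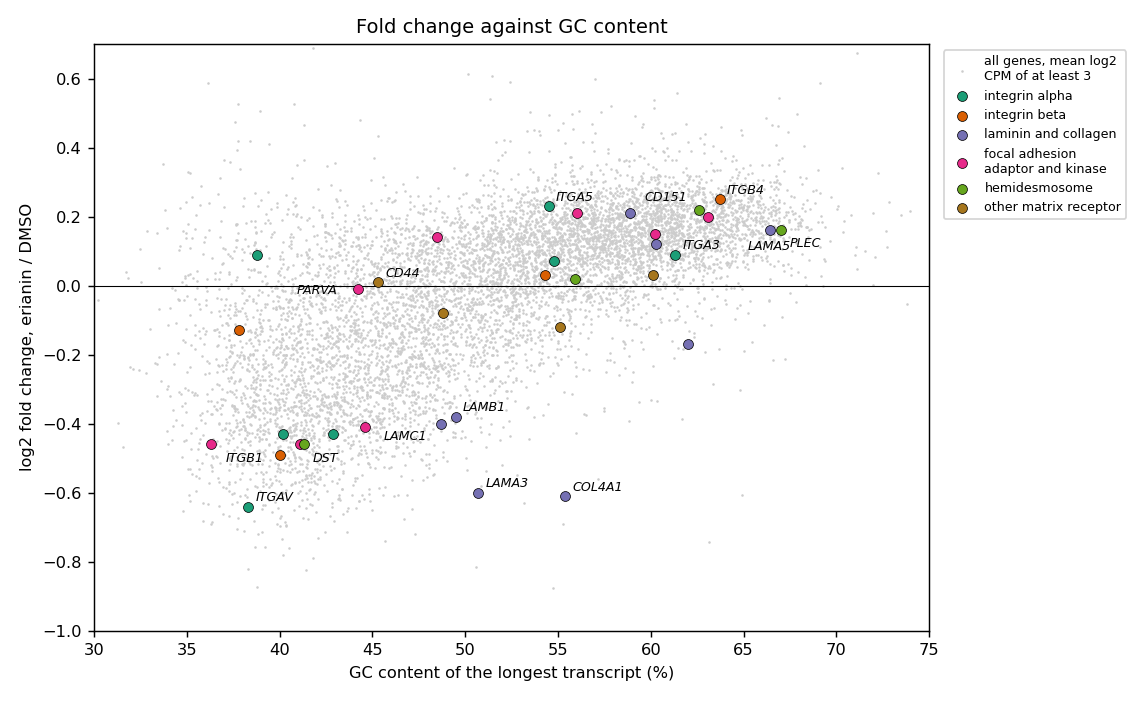
Log2 fold change (erianin over DMSO) against the GC content of the longest transcript in percent, with the 35 listed genes coloured by role over all genes averaging a log2 CPM of 3 or more in grey. ITGAV, ITGB1 and DST lie low at low GC, and ITGB4 and LAMA5 lie above 0 at high GC. LAMA3 (-0.60) and COL4A1 (-0.61) lie below the lower quartile of grey genes of similar GC content (-0.11 and 0.03). COL4A1 averages under that log2 CPM and has an SE of 0.58.

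ITGAV, the alpha subunit of receptors for vitronectin, fibronectin and latent TGF-beta, had the largest fold change of the listed integrin subunits with the counts as deposited. Its level was 34.86 and 28.90 CPM in the erianin libraries, against 50.48 and 49.08 CPM in the DMSO libraries. Both erianin libraries lay below both DMSO libraries, and replicate 2 lay lower than replicate 1. The means were 31.9 ± 4.21 CPM in erianin cells and 49.8 ± 0.994 CPM in DMSO cells (SD, n = 2 each). The log2 fold change was -0.64 ± 0.14 (SE), with a 95% interval of -0.96 to -0.33. The adjusted p was 0.575 by edgeR's quasi-likelihood test, and the fold change ran from -0.79 to -0.51 as each library was left out. Per length, ITGAV was at 4.38 and 3.25 FPKM in the erianin libraries and 6.43 and 6.24 FPKM in the DMSO libraries. The median log2 fold change of genes within 1 percentage point of its GC was -0.28, and with the GC and length trend over all genes removed ITGAV was at -0.34 ± 0.09.

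The deposited counts come in several unnamed rows per gene, and the rows of ITGAV did not differ evenly. The leading row has an implied length of 7037 bases, beside a GENCODE transcript of 7030 bases, and held 31.6 and 27.3 CPM in the erianin libraries and 33.9 and 35.6 CPM in the DMSO libraries. It took 90.5 and 94.3% of the gene's counts in the erianin libraries, against 67.2 and 72.5% in the DMSO libraries, and its log2 ratio of means was -0.24. Another row, of nearly equal implied length at 6926 bases, had 0 counts in both erianin libraries and 391 and 369 counts in the DMSO libraries. How the row estimates were shared out between transcripts is not given in the sources used here, so the row values are not read as transcripts.

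ITGA2, the collagen receptor subunit, and ITGA6, the laminin receptor subunit of hemidesmosomes, were lower in both erianin libraries as well. ITGA2 was at 75.7 and 55.5 CPM in erianin libraries and 88.8 and 87.8 CPM in DMSO libraries (log2 fold change -0.43 ± 0.15). ITGA6 was at 35.3 and 25.6 CPM in erianin libraries and 41.9 and 40.1 CPM in DMSO libraries (-0.43 ± 0.17). In neither gene did the groups overlap, and in both the lowest library was erianin replicate 2. Without erianin replicate 2 ITGA2 was at -0.22 and ITGA6 at -0.21, and without erianin replicate 1 they were at -0.68 and -0.69, past the adjusted threshold. With the GC and length trend removed ITGA2 was at -0.12 and ITGA6 at -0.17.

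ITGA3, the laminin receptor subunit with the highest level in this line, had overlapping levels per length. It was at 434.57 and 400.36 FPKM in the erianin libraries and 406.79 and 412.69 FPKM in the DMSO libraries, and these values overlap. On the CPM scale the erianin libraries, at 2472 and 2476, both lay above the DMSO libraries, at 2309 and 2325, with a log2 fold change of 0.09 ± 0.09. ITGA3 made up 89.9 and 90.9% of the summed FPKM of the 7 alpha subunits in the erianin libraries, and 89.1 and 88.6% in the DMSO libraries. ITGA5, the fibronectin receptor subunit, was at 60.7 and 59.4 CPM in erianin libraries, above the 50.2 and 52.4 CPM of DMSO libraries (0.23 ± 0.11, adjusted p = 0.575 by edgeR). The collagen receptor subunit ITGA1 (0.09 ± 0.33) and the E-cadherin receptor subunit ITGAE (0.07 ± 0.16) overlapped between the groups. ITGA1 had 101 and 108 counts in erianin libraries and 103 and 109 in DMSO libraries. It shares 475 exon bases on the same strand with PELO, which had 4160 and 3642 counts in erianin libraries and 3937 and 4227 in DMSO libraries. Part of the ITGA1 counts could therefore belong to PELO. Most ITGAE counts, 86.4 and 91.7% in erianin libraries and 88.6 and 88.9% in DMSO libraries, sat in a row with an implied length of 672 bases, where the longest ITGAE transcript has 3858 bases. Its FPKM is therefore read against a short row and not against the full transcript.

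Of the 7 alpha subunits, 2 were higher in both erianin libraries, 3 were lower and 2 overlapped. Over all genes 21.7% were higher and 24.4% lower, and the median log2 fold change of the alpha subunits was 0.07.

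ITGB1, the beta subunit shared by most matrix receptors of epithelial cells, was lower in both erianin libraries, and ITGB4, the laminin receptor subunit of hemidesmosomes, was higher in both. ITGB1 was at 195.4 and 144.0 CPM in the erianin libraries, against 249.2 and 227.8 CPM in the DMSO libraries. The groups did not overlap, and erianin replicate 2 was the lowest. The means were 169.7 ± 36.4 CPM in erianin cells and 238.5 ± 15.1 CPM in DMSO cells (SD, n = 2 each), with a log2 fold change of -0.49 ± 0.14 (SE) and an adjusted p of 0.575 by edgeR's quasi-likelihood test. ITGB4 was at 294.5 and 293.8 CPM in the erianin libraries, against 246.7 and 246.9 CPM in the DMSO libraries, so that the libraries of each group nearly coincide (0.25 ± 0.09, adjusted p = 0.575 by edgeR). Without erianin replicate 2 ITGB1 was at -0.29, and without erianin replicate 1 it was at -0.74, past the adjusted threshold. With the GC and length trend removed, ITGB1 was at -0.26 ± 0.07 and ITGB4 at 0.17.

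In FPKM, the ratio of ITGB4 to ITGB1 was 1.06 and 1.38 in the erianin libraries, against 0.669 and 0.751 in the DMSO libraries. The groups did not overlap. ITGB4 was higher and ITGB1 lower in FPKM in both erianin libraries, so the ratio could not overlap. These genes had the highest and lowest log2 fold changes of the tested beta subunits. A two-sided exact permutation test gave p = 0.333, the smallest that 2 against 2 libraries allow over 6 splits. It therefore cannot show a difference. ITGB4 is also richer in G and C than ITGB1, and the ratio was not computed with the GC trend removed. ITGB1 shares 609 bases of its transcript at 95% identity or more with AC022149.1, which had 585 and 358 counts in erianin libraries and 882 and 603 in DMSO libraries, so part of either count could belong to the other. ITGB5, a vitronectin receptor partner of ITGAV, had a log2 fold change of 0.03 ± 0.09, and ITGB8, another ITGAV partner, had -0.13 ± 0.53 at 1.38 and 0.52 CPM in erianin libraries and 1.06 and 1.03 CPM in DMSO libraries. Both overlapped between the groups. Of the 4 tested beta subunits, 1 was higher in both erianin libraries, 1 was lower and 2 overlapped. Among all genes 21.7% were higher and 24.4% lower, and the median log2 fold change of the beta subunits was -0.05. The ratio of ITGB5 to ITGAV in FPKM was 6.37 and 7.26 in the erianin libraries and 4.25 and 4.45 in the DMSO libraries.

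**Figure D4:**
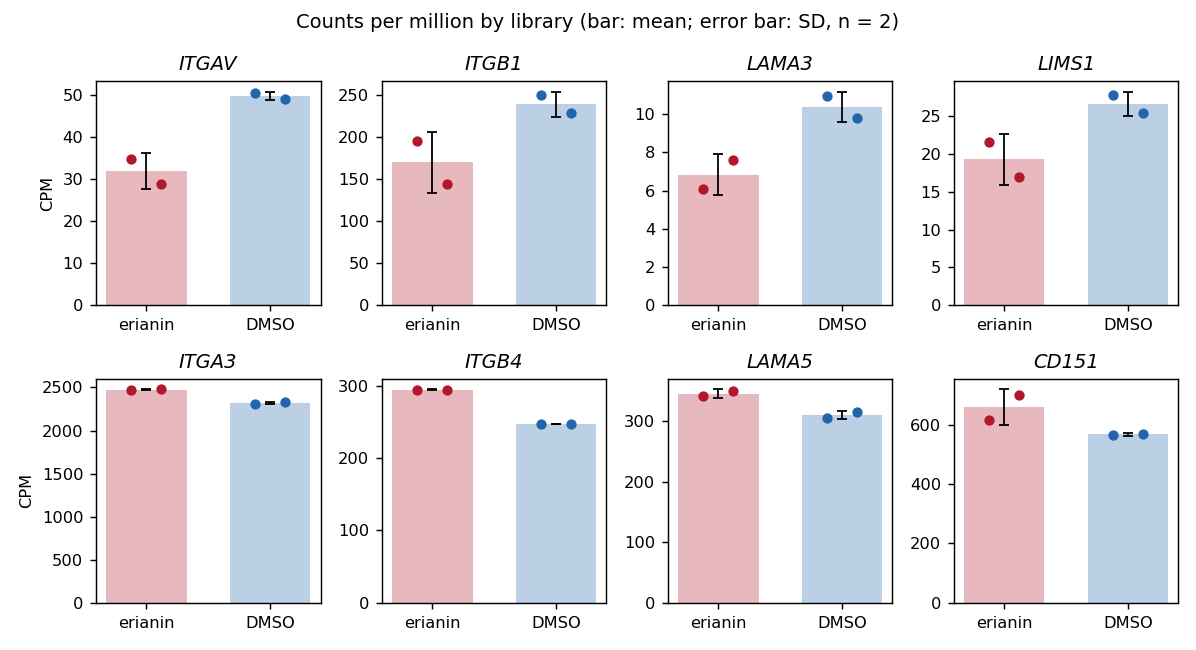
CPM of ITGAV, ITGB1, LAMA3 and LIMS1 (top) and ITGA3, ITGB4, LAMA5 and CD151 (bottom) in erianin and DMSO libraries, with points for libraries, bars for means and error bars for the SD (n = 2). The groups do not overlap in any of the 8 panels, and the top genes are lower and the bottom genes higher in erianin libraries.

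Among the matrix chains, LAMA3 had the smallest p. LAMA3, the alpha chain of the laminin that hemidesmosomes bind, was at 6.08 and 7.59 CPM in the erianin libraries, against 10.95 and 9.83 CPM in the DMSO libraries. Both erianin libraries were lower, and replicate 1 was the lowest of the 4. The log2 fold change was -0.60 ± 0.19 (SE, n = 2 each) with an adjusted p of 0.575 by edgeR's quasi-likelihood test, and it ran from -0.77 to -0.46 as each library was left out. Genes within 1 percentage point of its GC content of 50.7% had a median of 0.01, and LAMA3 was at -0.47 ± 0.19 with the trend removed. Its leading row, with an implied length of 10670 bases beside 10661 bases for the longest GENCODE form, took 98.7 and 99.5% of its counts in erianin libraries and 96.8 and 93.5% in DMSO libraries.

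LAMB3, the beta chain of the same laminin, lay on the other side of 0. It was at 41.2 and 38.2 CPM in erianin libraries and 33.6 and 35.1 CPM in DMSO libraries (0.21 ± 0.12, adjusted p = 0.59 by edgeR). The FPKM ratio of LAMB3 to LAMA3 was 16.1 and 13.5 in the erianin libraries, against 6.83 and 7.58 in the DMSO libraries.

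LAMA5 had the highest FPKM of the laminin and collagen chains. It forms the laminin of adult basement membranes with the LAMB1 or LAMB2 chain and the LAMC1 chain. LAMA5 was at 340.7 and 350.3 CPM in erianin libraries and 305.4 and 314.3 CPM in DMSO libraries (0.16 ± 0.09, adjusted p = 0.581 by edgeR), and 29.84 and 27.85 FPKM in erianin libraries and 27.48 and 28.61 FPKM in DMSO libraries. The groups were apart in CPM and overlapped in FPKM. Its partner LAMC1 was lower in both erianin libraries, at 57.4 and 46.5 CPM, against 68.0 and 68.7 CPM in DMSO libraries (-0.40 ± 0.13), and LAMB1 was lower too, at 104.4 and 70.6 CPM, against 120.9 and 106.1 CPM in DMSO libraries (-0.38 ± 0.18). The erianin replicate 1 value of LAMB1 lay only just under the lower DMSO value. Without erianin replicate 2 LAMC1 was at -0.25 and LAMB1 at -0.12, and without erianin replicate 1 they were at -0.57 and -0.69, past the adjusted threshold. LAMB2 overlapped (0.12 ± 0.11). The type IV collagen chains COL4A1 (39 and 19 counts in erianin libraries, 49 and 45 in DMSO libraries) and COL4A2 (80 and 61 counts in erianin libraries, 113 and 58 in DMSO libraries) were too shallow to place a fold change closely, with SEs of 0.58 and 0.43. Fibroblasts and endothelial cells also express type IV collagen, and the fibroblast marker sum was highest in the DMSO library with the highest COL4A2 level, DMSO replicate 1. Its part in these values was not tested.

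Of the 8 laminin and collagen genes, 2 were higher in both erianin libraries, 4 were lower and 2 overlapped. Across all genes 21.7% were higher and 24.4% lower. The median log2 fold change of the 8 genes was -0.28 (-0.24 with the GC and length trend removed).

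Of the 8 adaptors and kinases, 3 were higher in both erianin libraries, 3 were lower and 2 overlapped. Over all genes 21.7% were higher and 24.4% lower, and the median log2 fold change of the 8 was 0.06. The higher genes ILK, PXN and BCAR1 have 56 to 63.1% GC, and the lower genes PTK2, LIMS1 and FERMT2 have 36.3 to 44.6%. PXN, the scaffold paxillin and the highest of the group in FPKM, was at 513.1 and 552.9 CPM in erianin libraries and 462.0 and 496.5 CPM in DMSO libraries (0.15 ± 0.10, adjusted p = 0.595 by edgeR). BCAR1, the Cas adaptor, was at 434.2 and 482.0 CPM in erianin libraries and 401.8 and 393.6 CPM in DMSO libraries (0.20 ± 0.10). Both genes had all erianin values above all DMSO values. PXN shares 12.3% of its exon bases with the antisense gene PXN-AS1, whose reads cannot be told apart from its own without strand.

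ILK, LIMS1 and PARVA encode the members of a complex that links integrin tails to actin, and their RNAs lay on different sides of 0. ILK, the integrin-linked pseudokinase, was at 210.9 and 223.4 CPM in erianin libraries and 184.0 and 190.3 CPM in DMSO libraries (0.21 ± 0.09). ILK shares 68.1% of its exon bases with TAF10 on the opposite strand, and the sources used here do not say that counting used the strand, so reads of the 2 genes cannot be told apart. LIMS1, the LIM-domain adaptor, was at 21.6 and 16.9 CPM in erianin libraries, against 27.7 and 25.4 CPM in DMSO libraries, with no overlap (-0.46 ± 0.17, adjusted p = 0.575 by edgeR). It shares 922 bases with LIMS3 and LIMS4 at 95% identity or more, so its value is uncertain. Without erianin replicate 2 LIMS1 was at -0.30, and without erianin replicate 1 at -0.66, past the adjusted threshold. LIMS3 had 24 and 121 counts in erianin libraries and 58 and 36 counts in DMSO libraries. PARVA, the actin-binding parvin, was at 89.5 and 86.3 CPM in erianin libraries and 88.0 and 89.3 CPM in DMSO libraries, which overlap (-0.01 ± 0.10).

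PTK2, the focal adhesion kinase, was at 30.51 and 21.95 CPM in erianin libraries, against 35.1 and 34.7 CPM in DMSO libraries (-0.41 ± 0.17). FERMT2, a kindlin that helps activate integrins, was at 9.50 and 7.11 CPM in erianin libraries, against 10.5 and 12.4 CPM in DMSO libraries (-0.46 ± 0.20). Erianin replicate 2 was the lowest library for both genes. Without it PTK2 was at -0.19 and FERMT2 at -0.27, and without erianin replicate 1 PTK2 was at -0.68 and FERMT2 at -0.70, past the adjusted threshold. FERMT1, the kindlin of epithelia, had only 68 and 46 counts in erianin libraries and 70 and 41 counts in DMSO libraries, which overlap.

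Of the hemidesmosome genes, CD151 and PLEC were higher and DST was lower in both erianin libraries. Among all genes 21.7% were higher and 24.4% lower, and the median log2 fold change of the 4 genes was 0.09. CD151, a tetraspanin that binds ITGA3 and ITGA6, was at 616.2 and 700.7 CPM in erianin libraries and 564.1 and 569.4 CPM in DMSO libraries (0.22 ± 0.10, adjusted p = 0.575 by edgeR). The groups did not overlap, and with the GC and length trend removed CD151 was at 0.01. PLEC, the plectin linker between ITGB4 and keratin, was at 1488 and 1573 CPM in erianin libraries and 1348 and 1388 CPM in DMSO libraries (0.16 ± 0.09). DST, dystonin, another linker of the plakin family, was at 27.3 and 17.7 CPM in erianin libraries, against 29.6 and 32.3 CPM in DMSO libraries, with erianin replicate 2 far below the other 3 libraries (-0.46 ± 0.21, adjusted p = 0.575 by edgeR). DST ran from -0.82 to -0.18 as each library was left out and was at -0.11 with the trend removed. Most DST counts sat in a row with an implied length of 24692 bases, beside 22431 bases for the longest GENCODE transcript. That row took 92.9 and 89.2% in erianin libraries and 91.4 and 93.8% in DMSO libraries. A row with an implied length of 9201 bases took 1.4 and 2.9% in erianin libraries and 1.2 and 2.4% in DMSO libraries. It overlapped, at 0.39 and 0.52 CPM in erianin libraries and 0.35 and 0.77 CPM in DMSO libraries. The row of 24692 bases, which was lower in both erianin libraries, matched no GENCODE transcript in length. Which form of DST was lower was not tested. COL17A1, the transmembrane collagen of hemidesmosomes, was low and overlapped, at 2.97 and 3.67 CPM in erianin libraries and 3.12 and 3.41 CPM in DMSO libraries.

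Of the 4 other matrix receptors, 2 overlapped and 2 were lower in both erianin libraries. Across all genes 24.4% were lower, and the median log2 fold change of the 4 receptors was -0.04. CD44, the hyaluronan receptor, was at 365.2 and 325.4 CPM in erianin libraries and 349.5 and 336.1 CPM in DMSO libraries, so that the DMSO values lay between the erianin values (0.01 ± 0.10, adjusted p = 0.978 by edgeR). DAG1, the laminin-binding dystroglycan, was at 89.6 and 86.1 CPM in erianin libraries and 93.5 and 97.1 CPM in DMSO libraries (-0.12 ± 0.10, adjusted p = 0.66 by edgeR). The DAG1 groups did not overlap. The heparan sulphate proteoglycan SDC1 overlapped (0.03 ± 0.10), and SDC4, which works with integrins in focal adhesions, was lower in both erianin libraries, at 109.1 and 99.4 CPM, against 110.6 and 109.7 CPM in DMSO libraries (-0.08 ± 0.10).

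Fitting the GC and length trend over all genes and removing it brought most of the differences nearer to 0. Of the 24 listed genes whose groups did not overlap, 22 moved nearer to 0, and in 16 the log2 fold change became more than 1.5 times smaller. These genes were picked for differing in the deposited counts, and the trend was fitted to the same libraries. A move toward 0 was therefore likely beforehand, and the share over all genes was not computed. The SD of the 35 log2 fold changes was 0.23 with the trend removed and 0.29 with the counts as deposited. No listed gene passed the adjusted threshold in that fit. At an unadjusted p below 0.05, ITGAV, ITGB1, LAMA3 and LAMC1 were lower in erianin cells, where 3.12% of all genes were, and ITGA5, ITGB4, PARVA, PLEC and CD44 were higher, where 3.36% of all genes were. PARVA (0.28 ± 0.10) and CD44 (0.24 ± 0.06) had been near 0 with the counts as deposited, and both have a GC content under 49.5%.

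**Figure D5:**
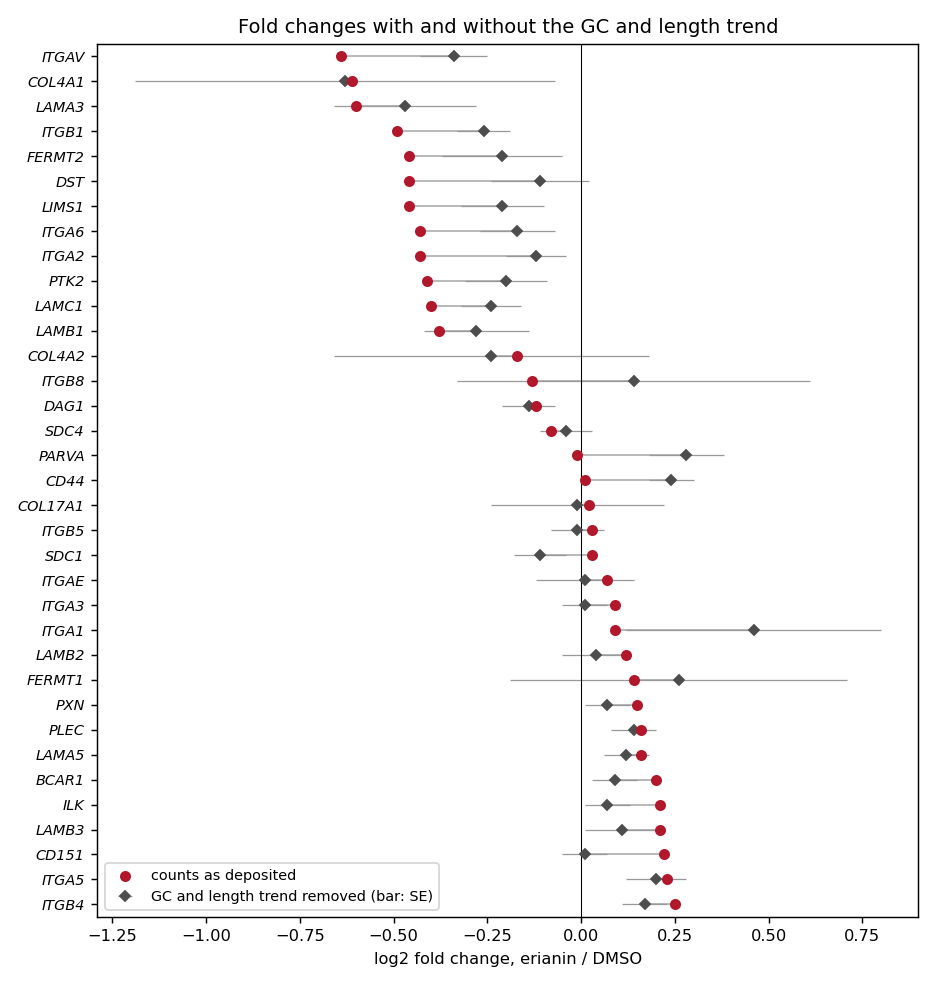
Log2 fold change (erianin over DMSO) of the 35 tested genes with the counts as deposited (circles) and with the GC and length trend over all genes removed (diamonds, bars for the SE). ITGAV lies at -0.64 and -0.34, LAMA3 at -0.60 and -0.47, DST at -0.46 and -0.11, and CD44 at 0.01 and 0.24.

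The wider adhesion pathway, taken from lists of other genes, showed no change that passed the threshold either. Of 87 such genes, 83 were in the count table and 74 were tested, and 0 passed the adjusted threshold of edgeR or of DESeq2. At an unadjusted p below 0.05, 3 were higher and 7 were lower in erianin cells, where 2.21% and 5.89% of all genes were higher and lower. The groups did not overlap for 20 higher and 16 lower genes, where 21.7% of all genes were higher and 24.4% lower, and the median log2 fold change was -0.01. Among 9 tested integrin subunits the smallest p-values belonged to ITGB3, a vitronectin receptor partner of ITGAV, at -0.39 ± 0.16, and ITGA10, a collagen receptor subunit, at -0.33 ± 0.22. ITGB3 was at 12.3 and 11.8 CPM in erianin libraries and 14.8 and 16.8 CPM in DMSO libraries. Among 9 tested matrix ligands they belonged to VTN, vitronectin, at -0.67 ± 0.26 (2.47 and 3.53 CPM in erianin libraries, 4.71 and 4.79 CPM in DMSO libraries) and to THBS1, thrombospondin, at -0.32 ± 0.14.

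Among 38 other focal adhesion genes the smallest p-values belonged to LPP and TNS4. LPP, a zyxin relative, was at 9.97 and 9.57 CPM in erianin libraries and 15.01 and 15.79 CPM in DMSO libraries (-0.66 ± 0.15). TNS4, an epithelial tensin, was at 27.6 and 34.8 CPM in erianin libraries and 21.9 and 21.6 CPM in DMSO libraries (0.52 ± 0.16). Neither pair of groups overlapped. Among 8 tested basement membrane genes, HSPG2, perlecan, was at 0.12 ± 0.09 and the laminin chain LAMA2 at 0.84 ± 0.91 with levels under 0.5 CPM. Among 10 other receptors and tetraspanins, the laminin receptor BCAM was at 0.18 ± 0.10 and the glypican GPC1 at 0.14 ± 0.10.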

How the data were processed

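RNA sequencing of 2 erianin and 2 DMSO libraries of SW1990 cells was analysed. The authors deposited estimated counts and FPKM values in 107429 rows, and 14076 of 25798 gene IDs have more than 1 row. Per the submitters' processing notes the tools include fastp, STAR, featureCounts 2.0.1 and StringTie 2.2.1 on GRCh38, with no role given. Rows were summed per gene ID and counts rounded to whole numbers.

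edgeR 4.0.16 in R 4.3.3 (TMM, filterByExpr with a minimum count of 10, quasi-likelihood test without a replicate block, Benjamini-Hochberg adjustment over 17090 genes, threshold 0.05) gave log2 fold changes, SEs and p-values, and CPM used TMM-scaled library totals. The step was tested on simulated data. The biological coefficient of variation was 0.233 with 2 residual degrees of freedom. Alternatives used DESeq2 1.42.0, limma 3.58.1 on log2(FPKM + 1), other scalings, filters, a spline in GC content and length, and each library left out. BLAST 2.17.0 found near copies, and row lengths were implied from deposited counts and FPKM. The CPM of a zero count covers counting error only.

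The listed genes and the other gene lists were chosen with earlier results of these data known. Every listed gene is named. ITGAV, the gene of smallest p and the gene of highest FPKM in each role are given by library, as are others for comparison, and the 2 genes of smallest p are named from each other list.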

Additional observations from a re-analysis of the deposited data

How the results depend on the processing

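Depth limits 6 of the listed genes most: ITGA1, ITGB8, COL4A1, COL4A2, FERMT1 and COL17A1, which have SEs of 0.26 to 0.58. The number of listed genes past the adjusted threshold was 0, and it was 1 with DESeq2, 4 with a replicate block (ITGAV, ITGA2, ITGB1 and LAMB1) and 0 to 15 as each library was left out. Over all genes 7 passed: 2 with library totals alone, 21 with DESeq2, 2, 2 and 1 with limma on FPKM (pseudocount 1, pseudocount 0.1, no filter), 334 with a replicate block, 15 with the block and the GC trend removed, and 24 to 3166 as each library was left out. Same-numbered libraries had deviations correlated at 0.222 over 7986 genes. The labels name no shared culture, so whether equal numbers mark pairs is not known.

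The median log2 fold change of the listed genes was 0.01. It was -0.09 with library totals alone, where the median of all genes was -0.11. For the listed genes it was -0.05, -0.10 and -0.04 with the 3 limma fits, and -0.06 to -0.01 as each library was left out.

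Some log2 fold changes of listed genes changed sign. With DESeq2 or its size factors PARVA was at 0.00 and with upper-quartile scaling at 0.01. With the GC trend removed ITGB5 was at -0.01, ITGB8 0.14, PARVA 0.28, COL17A1 -0.01 and SDC1 -0.11, and with the block as well ITGB8 was at 0.05 and COL17A1 at -0.02, the others being equal. With library totals alone ITGA1 was at -0.01, ITGA3 0.00, ITGAE -0.03, ITGB5 -0.07, COL17A1 -0.08, CD44 -0.09 and SDC1 -0.07. With limma at a pseudocount of 0.1 ITGA1 was at 0.00, ITGAE -0.03, ITGB5 -0.10, LAMB2 -0.02, COL17A1 0.00 and SDC1 -0.06, and at 1 ITGAE was at -0.02, ITGB5 -0.10, LAMB2 -0.02 and SDC1 -0.06. As each library was left out, ITGA1 ran from -0.06 to 0.22, ITGAE -0.06 to 0.21, ITGB5 -0.04 to 0.08, ITGB8 -1.01 to 0.41, COL4A2 -0.54 to 0.34, PARVA -0.05 to 0.02, FERMT1 -0.16 to 0.53, COL17A1 -0.14 to 0.16, CD44 -0.08 to 0.09 and SDC1 -0.04 to 0.09. The cause of these turns was not tested.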

Other observations

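The 3 genes of the wider adhesion lists with the highest mean FPKM were picked after their values were seen. The tetraspanin CD63 was at 764.58 and 798.29 FPKM in the erianin libraries and 742.64 and 806.82 FPKM in the DMSO libraries, which overlap. The actin crosslinker FLNA was at 520.22 and 492.37 FPKM in the erianin libraries and 478.63 and 499.73 FPKM in the DMSO libraries, which overlap too. ACTN4, an actin crosslinker of the actinin family, was at 246.09 and 211.05 FPKM in the erianin libraries and 224.19 and 228.93 FPKM in the DMSO libraries, which overlap as well. ITGA4 and ITGB7, subunits of leukocyte integrins, had 0 counts in both erianin libraries and 4 and 0 counts in the DMSO libraries. The laminin chain LAMA1 had 0 counts in both erianin libraries and 20 and 8 counts in the DMSO libraries, and LAMC3 had 0 counts in both erianin libraries and 12 and 4 counts in the DMSO libraries. The smallest of these counts are near the limit that a count of 0 allows.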
